A study of Mus musculus with 12 samples.

Results

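The adaptors that switch integrins on and tie them to actin were examined in PreMegEs, the bone marrow progenitors that give rise to megakaryocytes and erythroid cells. The set was chosen by symbol and held 10 of the 41128 genes in the count table, namely Fermt3, Tln1, Rap1a, Rap1b, Rasgrp2, Apbb1ip, Vcl, Ilk, Actn1 and Zyx. RNA-Seq counts were available for 12 libraries in 4 groups of 3, and each library was made from the pooled marrow of 3 mice. All animals were C57BL/6, aged 12 to 16 weeks, and the cells were sorted from adult bone marrow. WT PreMegEs came from wild type mice. P2- and P2+ PreMegEs both came from Runx1 P1-GFP::P2-hCD4/+ mice, which carry 1 reporter allele, so neither has the 2 wild type alleles of the WT group; they were separated by the human CD4 reporter of the proximal Runx1 promoter (Runx1 P2-hCD4- and Runx1 P2-hCD4+). RUNX1C KO PreMegEs lack the isoform made from the distal promoter P1, in mice homozygous for P1-GFP in which the proximal promoter P2 was intact.

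Integrins rest in a bent state of low affinity and are switched on from inside the cell. In platelets, the products of megakaryocytes, calcium acts on the exchange factor CalDAG-GEFI (the product of Rasgrp2), which loads Rap1 GTPases with GTP; active Rap1, alone or through the adaptor RIAM (Apbb1ip), brings talin (Tln1) to the tail of the integrin beta subunit, where kindlin-3 (Fermt3) binds beside it. Once the integrin has bound ligand, vinculin (Vcl), alpha-actinin (Actn1), integrin-linked kinase (Ilk) and zyxin (Zyx) couple it to actin filaments. Loss of kindlin-3 or of CalDAG-GEFI causes bleeding in mice and people, and mutations of ACTN1 cause an inherited thrombocytopenia with large platelets.

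In short, the messages of the set were higher in P2+ than in P2- PreMegEs, and the difference was concentrated in a few members. Rap1b was 4.63-fold, Actn1 3.72-fold and Zyx 2.63-fold higher, Vcl, Rasgrp2, Tln1 and Fermt3 rose by less than 2-fold, Apbb1ip fell, and Rap1a and Ilk did not pass the test. RUNX1C KO PreMegEs had less Actn1, Zyx and Rap1b than WT PreMegEs. They also had less Ilk and more Apbb1ip, but these calls were lost in 4 and 5 of the 6 fits that left out 1 library.

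The sequences before the start of 4 members are shown, for the members with the largest rises (Rap1b and Actn1) and for Vcl, with its single CArG box, and Fermt3, which has more than 1 RUNX core. They are RefSeq promoter sequences of the mouse build GRCm38.p6, read 5′ to 3′ on the strand of the gene and ended where GENCODE vM21 places the first exon of any transcript. Capitals mark TGTGGT, the core that RUNX factors bind, in Fermt3, and a CArG box, the site of serum response factor, in Vcl.
Rap1b, chr10:117846036-117846224, minus strand: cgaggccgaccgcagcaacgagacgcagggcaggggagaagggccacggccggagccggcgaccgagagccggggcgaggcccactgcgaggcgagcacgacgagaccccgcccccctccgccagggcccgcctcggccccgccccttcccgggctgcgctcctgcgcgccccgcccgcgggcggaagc
Actn1, chr12:80260372-80260613, minus strand: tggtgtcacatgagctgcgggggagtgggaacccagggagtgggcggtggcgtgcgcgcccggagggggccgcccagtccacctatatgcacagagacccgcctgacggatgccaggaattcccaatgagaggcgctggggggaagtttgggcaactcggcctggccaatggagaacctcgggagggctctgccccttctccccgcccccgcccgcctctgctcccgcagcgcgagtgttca
Vcl, chr14:20929148-20929397, plus strand: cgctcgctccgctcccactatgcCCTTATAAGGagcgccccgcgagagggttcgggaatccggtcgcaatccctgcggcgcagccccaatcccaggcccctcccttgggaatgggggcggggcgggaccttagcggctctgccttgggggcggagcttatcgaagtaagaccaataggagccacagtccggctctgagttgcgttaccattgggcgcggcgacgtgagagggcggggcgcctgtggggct
Fermt3, chr19:7019470-7019719, minus strand: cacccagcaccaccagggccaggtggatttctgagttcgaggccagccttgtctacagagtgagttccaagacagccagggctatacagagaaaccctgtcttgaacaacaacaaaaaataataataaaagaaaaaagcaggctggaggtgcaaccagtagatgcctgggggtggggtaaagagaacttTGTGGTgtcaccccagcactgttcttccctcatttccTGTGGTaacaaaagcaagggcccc

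Of the members, 9 had a RefSeq promoter and gave 11 windows of 250 bases before the start, since Ilk and Rasgrp2 have more than 1 start. TGTGGT or its complement on the other strand was found in 3 of the 11 windows, against 14.0% of the 32851 promoters of all genes; these were the window of Fermt3, with a match 61 and another 24 bases before the start, and both overlapping windows of Ilk, which share a single match. AGATAA, which the erythroid factor Gata1 binds, was in none of the 11 windows and in 9.99% of all promoters. CCGGAA, an ETS site, was in 3 windows, of Ilk and Rasgrp2, and in 12.0% of all promoters. The CArG box of Vcl began 227 bases before the start, and such a box was in 1.47% of all promoters. TGACGT, the core of a cyclic AMP response element, was in the window of Rap1b alone, where it is read on both strands in overlapping positions 42 and 40 bases before the start and within the first exon of GENCODE, and it was in 6.47% of all promoters. These matches describe the letters of the windows and do not show that a factor binds there.

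The libraries held between 10726098 and 14445026 counts. A count of 0 allowed a level of up to 0.207 to 0.288 CPM (counts per 1000000 counts of the library, its size adjusted by TMM), which covers counting error only. Runx1 was at 211 CPM ± 7.41 in P2-, 369 ± 15.6 in WT, 631 ± 24.2 in P2+ and 360 ± 20.4 in RUNX1C KO PreMegEs (mean ± SD, n = 3). These counts sum both Runx1 isoforms and therefore do not check the loss of RUNX1C. Replicate 2 of P2- and replicate 2 of P2+ stood apart by their immediate early genes (Fos, Egr1 and 8 others), which summed to 13250 and 8868 CPM against 167 to 1244 CPM in the other 10 libraries. The gate genes Kit and Slamf1 were detected in all groups, Kit at 814 to 1087 CPM and Slamf1 at 36.0 to 59.1 CPM (group means), and Fcgr3, of the antigens gated out, at 0.543 to 1.60 CPM. Eng, the gene of endoglin, which is gated out as well, was at 104 to 128 CPM. Itga2b, the gene of the CD41 antigen that the gate leaves out, was at 51.0 CPM in P2- and 282 CPM in P2+ PreMegEs.

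The order of the members by level per length was led by Rap1b or Tln1. In WT PreMegEs Rap1b stood at 176 RPKM ± 19.9, Tln1 at 107 ± 4.70 and Fermt3 at 96.5 ± 3.84, followed by Zyx at 59.7 ± 3.55, Ilk at 29.1 ± 1.26, Vcl at 24.3 ± 1.54 and Rap1a at 23.0 ± 2.63. Apbb1ip (5.71 ± 0.337), Rasgrp2 (4.39 ± 1.04) and Actn1 (2.15 ± 0.225) were the lowest. RPKM divides CPM by the exonic length in kilobases over all transcripts of a gene. That length was 12384 bases for Rasgrp2, whose value per length is lowered accordingly. Gm9392 and Gm6263, pseudogene copies of Rap1a and Ilk, took counts that these values leave out. In WT PreMegEs Rap1a stood at 59.8 CPM alone and 207 CPM with its copy, and Ilk at 79.7 and 195 CPM. The places of Rap1a and Ilk in the order thus depend on how reads are assigned. In P2+ PreMegEs Rap1b reached 343 RPKM ± 45.1, while in P2- PreMegEs, at 74.7 ± 10.1, it was below Tln1 (89.9 ± 1.43) and Fermt3 (86.8 ± 4.60). The counts of all members summed to 2139 CPM ± 83.0 in P2-, 2560 ± 119.7 in RUNX1C KO, 2878 ± 88.0 in WT and 3735 ± 383 in P2+ PreMegEs.

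**Figure D1:**
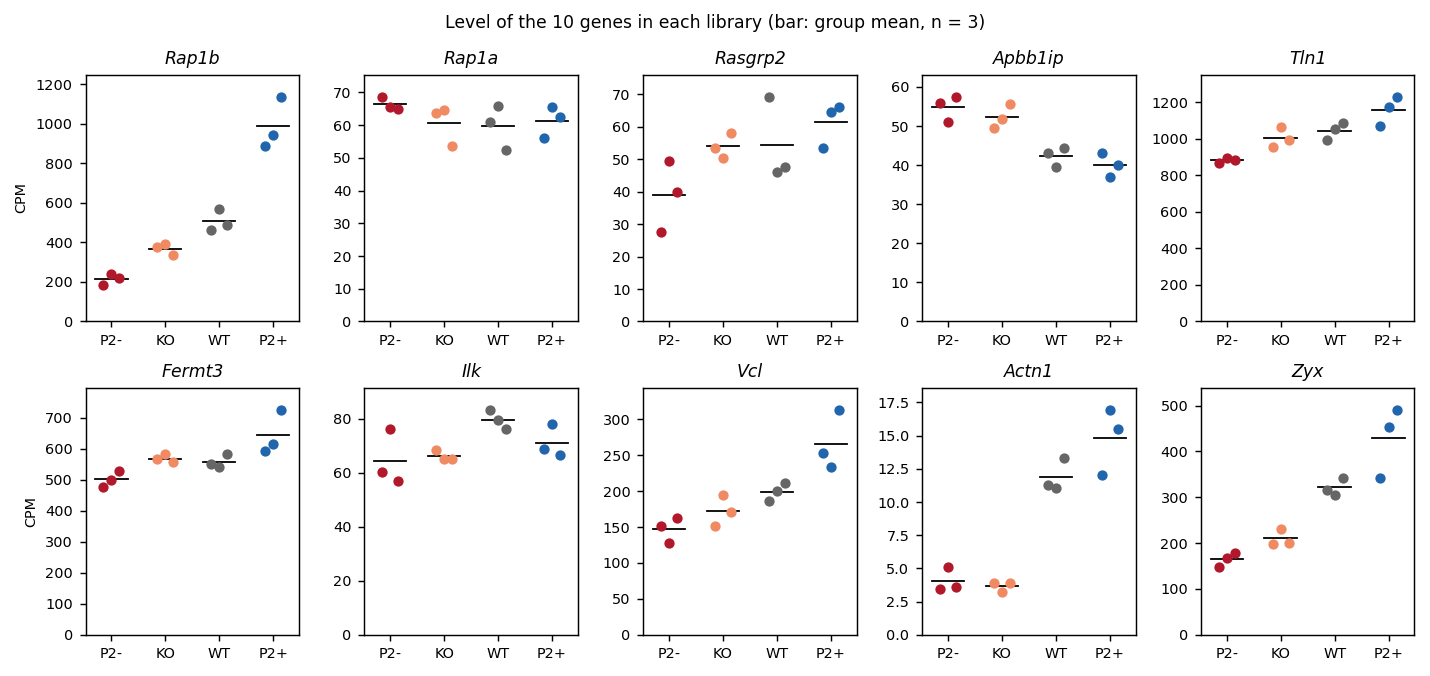
Level of each of the 10 genes (vertical axis, CPM, from 0) in the P2-, RUNX1C KO, WT and P2+ libraries (horizontal axis); each point is a library and each bar the mean of 3. Rap1b rises from 216 CPM in P2- to 989 CPM in P2+ with no overlap between any of the 4 groups, Actn1 has means of 4.04 CPM in P2- and 3.70 CPM in RUNX1C KO, and the group means of Rap1a lie between 59.8 and 66.4 CPM.

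The comparison of P2+ with P2- PreMegEs asks which messages differ between the progenitors with and without activity of the proximal promoter. All 10 members passed the filter on low counts, a level of 1 CPM or more in 3 or more of the 6 libraries. At an adjusted p under 0.05 (edgeR's quasi-likelihood test), 7 were higher in P2+, against 20.1% of the 12836 genes tested, and 1 was lower, against 17.0%. With a minimum of 2-fold, 3 members were higher, against 9.54% of all genes, and none lower, against 3.13%. The groups did not overlap for 8 members, against 49.9% of all genes. The median log2 fold change of the members was 0.54 and that of all genes -0.02.

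Rap1b, the main Rap1 of platelets, changed most. Its levels were 185, 243 and 219 CPM in P2- replicates 1 to 3 and 889, 942 and 1136 CPM in P2+ replicates 1 to 3. Every P2+ library was at least 889 CPM and every P2- library at most 243 CPM. The log2 fold change was 2.21 ± 0.13 (SE, adjusted p = 6.05e-06, edgeR's quasi-likelihood test), and Rap1b ranked 26 by size of change among the 2663 genes tested with a mean of at least 100 CPM, which placed it in the top 0.976%. The pairs of P2+ and P2- libraries with the same number, which deviate together, gave log2 ratios of 2.27, 1.96 and 2.37. Rap1a encodes a nearly identical GTPase from another gene. It was at 68.6, 65.5 and 65.1 CPM in P2- and 56.0, 65.5 and 62.6 CPM in P2+ libraries, ranges that overlap, with a log2 fold change of -0.10 ± 0.09 (adjusted p = 0.416, edgeR). Rap1b made up 74.4% ± 3.16 of the Rap1 counts per length in P2- and 93.5% ± 0.699 in P2+ PreMegEs. These shares depend on a pseudogene copy of Rap1a, Gm9392: with its counts added to Rap1a they were 47.3% ± 3.67 and 80.3% ± 2.15.

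Actn1 encodes the alpha-actinin that crosslinks actin in platelets, and it was a rare message. It was counted 43, 53 and 51 times in the P2- and 144, 245 and 203 times in the P2+ libraries, or 3.42, 5.09 and 3.60 CPM against 12.1, 16.9 and 15.5 CPM. The groups were far apart relative to their spread, and the log2 fold change was 1.90 ± 0.23 (adjusted p = 2.80e-04, edgeR). Actn4, the other alpha-actinin of non-muscle cells, was much more abundant and did not pass the test. It stood at 38.4 RPKM ± 3.43 in P2- and 43.2 ± 4.11 in P2+ (log2 fold change 0.18 ± 0.10, adjusted p = 0.178, edgeR). Actn1 thus held 1.86% ± 0.316 of both messages per length in P2- and 5.81% ± 0.443 in P2+ PreMegEs.

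Zyx encodes a LIM protein that gathers at focal adhesions under tension. Its levels were 148, 167 and 179 CPM in P2- and 342, 454 and 490 CPM in P2+ libraries, again without overlap, with a log2 fold change of 1.39 ± 0.14 (adjusted p = 8.85e-05, edgeR). Lpp rose from 0.619 RPKM ± 0.0947 to 2.30 ± 0.185 (log2 fold change 1.90, adjusted p = 1.75e-05, edgeR), whereas Trip6 fell from 25.2 ± 1.42 to 18.1 ± 1.40 RPKM (log2 fold change -0.46, adjusted p = 5.82e-03, edgeR) and Limd1 was not called (-0.05). Zyx held 54.1% ± 3.71 of the summed messages of Zyx, Lpp and Trip6 per length in P2- and 79.3% ± 3.25 in P2+ PreMegEs. This share rests on the exonic length of Lpp over all transcripts, 22046 bases, and without the division by length it was 68.6% and 81.6%. Vcl, the adaptor that reinforces talin under force, was at 152, 127 and 163 CPM in P2- and 253, 233 and 313 CPM in P2+ libraries, a log2 fold change of 0.87 ± 0.13 (adjusted p = 8.90e-04, edgeR) without overlap.

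**Figure D2:**
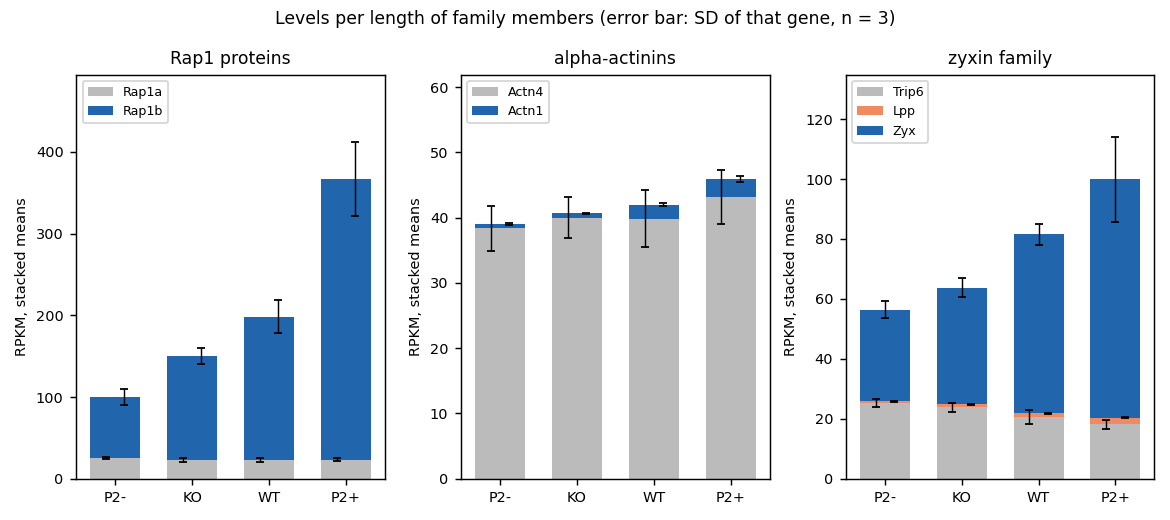
Stacked mean levels per length (vertical axis, RPKM, from 0) of Rap1a and Rap1b, of Actn4 and Actn1, and of Trip6, Lpp and Zyx in the P2-, RUNX1C KO, WT and P2+ groups (horizontal axis); each error bar is the SD of the gene at whose top it stands (n = 3). The counts of the copy Gm9392 are not in the Rap1 column, Rap1b accounts for the growth of that column, Actn4 dominates the alpha-actinins in every group, and Zyx grows from P2- to P2+ as Trip6 shrinks.

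The direct activators of the integrin tail changed little in comparison. Tln1 was at 867, 895 and 882 CPM in P2- and 1071, 1172 and 1229 CPM in P2+ libraries, a rise of 32.5% (log2 fold change 0.41 ± 0.07, adjusted p = 2.08e-03, edgeR). Fermt3 was at 476, 501 and 529 CPM in P2- and 594, 615 and 725 CPM in P2+ libraries, a rise of 29.6% (log2 fold change 0.37 ± 0.09, adjusted p = 0.0125, edgeR). Both sets of values were apart, but neither call was made by edgeR's exactTest (adjusted p = 0.0611 for Tln1 and 0.0891 for Fermt3), and that of Fermt3 was lost without P2- replicate 1 (0.0504, edgeR's quasi-likelihood test). These fits do not use the pairing of the libraries. With the pairing as a block, adjusted p was 9.8e-06 for Tln1 and 3.98e-05 for Fermt3 (edgeR's quasi-likelihood test). Fermt3 and Tln1 were nearly the only kindlin and talin messages in the libraries: Fermt1 and Fermt2 had no count in any of the 12, and Tln2 had at most 6 counts.

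Rasgrp2 and Apbb1ip, which act upstream and downstream of Rap1, moved in opposite directions. Rasgrp2 was at 27.7, 49.5 and 39.8 CPM in P2- and 53.5, 64.6 and 66.0 CPM in P2+ libraries (log2 fold change 0.67 ± 0.19, adjusted p = 0.0249, edgeR). This call was lost without P2+ replicate 3 (adjusted p = 0.0758) or P2- replicate 3 (0.0680, edgeR). With the pairing as a block, adjusted p was 9.61e-05 for Rasgrp2 (edgeR). The other exchange factors of the RasGRP family, Rasgrp1, Rasgrp3 and Rasgrp4, had at most 16 counts in any library, and Rasgrp2 held 94.4% to 97.0% of the family per length (group means). Apbb1ip was at 55.9, 51.0 and 57.4 CPM in P2- and 43.2, 37.0 and 40.04 CPM in P2+ libraries, which do not overlap, and fell by 0.44 ± 0.10 on the log2 scale (adjusted p = 9.49e-03, edgeR). Ilk was at 60.3, 76.2 and 57.0 CPM in P2- and 68.8, 78.0 and 66.5 CPM in P2+ libraries, which overlap (log2 fold change 0.16 ± 0.12, adjusted p = 0.369, edgeR). It was higher in P2+ in all 3 pairs of the same number, with log2 ratios of 0.19, 0.03 and 0.22 (adjusted p = 0.0930 with the pairing as a block, edgeR), and its log2 fold change ran from 0.07 without P2- replicate 3 to 0.29 without P2- replicate 2.

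Leaving out replicate 2 of both reporter groups, the libraries with high immediate early genes, kept 8 calls among the members, with log2 fold changes of 2.35 for Rap1b, 1.996 for Actn1 and 1.37 for Zyx. Markers of neighbouring cell types moved with the same contrast. The 10 megakaryocyte markers summed to 133 to 194 CPM in P2- and 903 to 1369 CPM in P2+ libraries, with 8 of the 9 tested higher; the 10 erythroid markers summed to 5697 to 6533 CPM in P2- and 1352 to 1504 CPM in P2+ libraries, with 8 lower and 1 higher. The 10 neutrophil and monocyte markers summed to 59.8 to 115 CPM and 298 to 438 CPM (6 of 9 tested higher), the 10 lymphoid markers to 19.6 to 33.1 CPM and 46.7 to 149 CPM (5 of 7 higher), and the 6 mast cell and basophil markers, 4 of which had no count in P2-, to 24.5 to 28.3 CPM and 84.3 to 137 CPM (3 of 3 higher). Their part in the differences of the members was not tested. In sorted populations fewer cells of a type and less RNA per cell cannot be told apart.

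**Figure D3:**
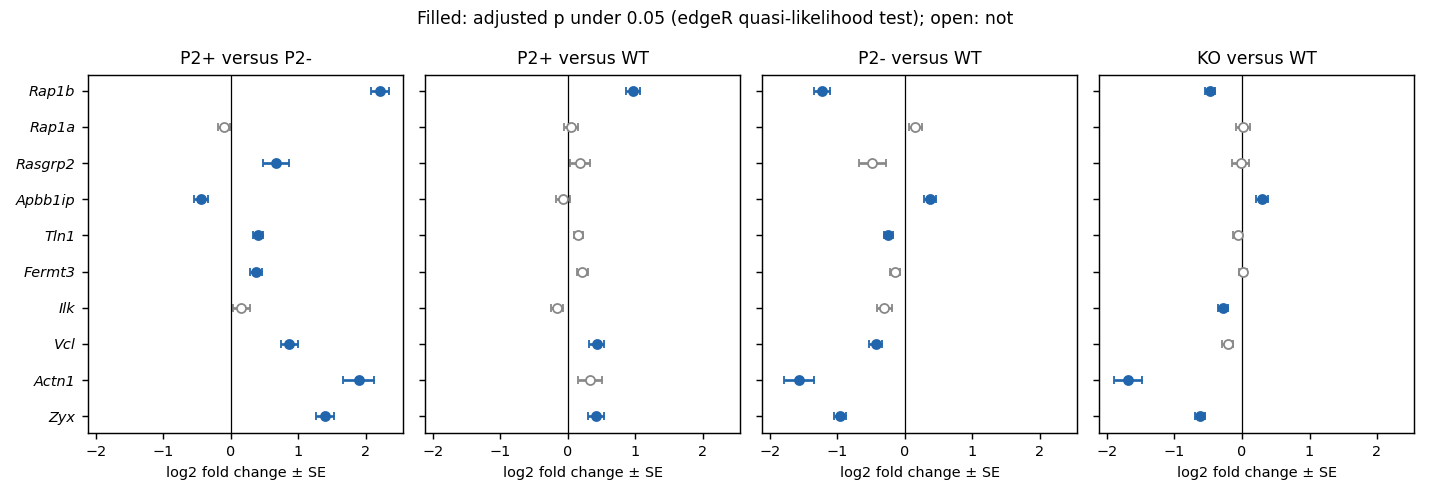
Log2 fold change with its standard error (horizontal axis) of each of the 10 genes (vertical axis) in the 4 comparisons; filled points had an adjusted p under 0.05 in edgeR's quasi-likelihood test and open points did not. Rap1b, Actn1 and Zyx lie at 2.21, 1.90 and 1.39 between P2+ and P2-, and Apbb1ip lies on the other side of 0 from them in all 4 panels.

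WT PreMegEs, which carry no reporter and were not separated by promoter activity, served as the common control of the remaining comparisons, which therefore share 3 libraries and are given side by side. Against WT, 3 members were higher in P2+ PreMegEs, against 9.45% of the 12941 genes tested, and none lower, against 7.07%; none of these calls reached 2-fold (2.16% of all genes did so higher and 1.68% lower). The groups did not overlap for 3 members, against 35.5% of all genes. In P2- PreMegEs 5 members were lower than in WT, against 9.60% of the 12767 genes tested, and 1 was higher, against 6.85%. With a minimum of 2-fold 2 were lower, against 4.10%, and none higher, against 0.572%. The groups did not overlap for 8 members, against 35.1% of all genes.

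Rap1b was at 461, 571 and 488 CPM in the WT libraries, between the reporter groups and apart from both. It was higher in P2+ than in WT (log2 fold change 0.97 ± 0.10, adjusted p = 2.12e-04, edgeR) and lower in P2- (-1.23 ± 0.12, adjusted p = 1.06e-04, edgeR). On the CPM scale the WT mean lay 37.6% of the way from P2- to P2+. Vcl, at 186, 199.6 and 211 CPM in WT, was also apart from both, with log2 fold changes of 0.43 ± 0.11 in P2+ (adjusted p = 0.0228, edgeR) and -0.43 ± 0.10 in P2- (adjusted p = 0.0146, edgeR). Zyx was at 317, 305 and 343 CPM in WT, where the highest library just exceeded the lowest of P2+. Its log2 fold change was 0.42 ± 0.12 in P2+ (adjusted p = 0.0378, edgeR) and -0.96 ± 0.09 in P2- (adjusted p = 9.68e-05, edgeR).

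Actn1 was closer to P2+ in the WT libraries, at 11.3, 11.1 and 13.3 CPM, 72.9% of the way from P2- to P2+. It was lower in P2- than in WT (log2 fold change -1.565 ± 0.22, adjusted p = 1.15e-03, edgeR), and its value in P2+ overlapped that of WT (0.32 ± 0.18, adjusted p = 0.251, edgeR). Tln1, at 996, 1051 and 1087 CPM in WT, was lower in P2- (log2 fold change -0.24 ± 0.06, adjusted p = 0.0251, edgeR) and at 0.15 ± 0.07 in P2+ (adjusted p = 0.147, edgeR). Apbb1ip, at 43.0, 39.5 and 44.4 CPM in WT, was higher in P2- (0.37 ± 0.09, adjusted p = 0.0179, edgeR) and overlapped WT in P2+. Fermt3, Rasgrp2, Ilk and Rap1a passed the test in neither comparison with WT. Leaving out P2+ replicate 3, WT replicate 1 or WT replicate 2 left Rap1b as the 1 member called between P2+ and WT, and Zyx was also lost without WT replicate 3 (adjusted p = 0.0660, edgeR) and with edgeR's exactTest (0.0608). Between P2- and WT, the calls of Tln1, Apbb1ip and Vcl were each lost in turn without some libraries, that of Tln1 was also lost with exactTest (adjusted p = 0.321, edgeR), and leaving out WT replicate 2 left 3 members called, Rap1b, Actn1 and Zyx. Without P2- replicate 2, a library with high immediate early genes, Ilk (log2 fold change -0.45, adjusted p = 3.49e-03, edgeR) and Rasgrp2 (-0.69, adjusted p = 0.0200, edgeR) were called as well, which made 8 members.

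The markers of other cell types also differed between the reporter groups and WT. The megakaryocyte markers summed to 569 to 660 CPM in the WT libraries, above all P2- and below all P2+ libraries, with 8 of 9 tested lower in P2- and 5 higher and 1 lower in P2+. The erythroid markers summed to 3305 to 3815 CPM in WT, with 8 of 10 higher and 1 lower in P2- and 7 of 10 lower in P2+. Of the neutrophil and monocyte markers 5 of 8 were lower in P2- and 2 of 7 higher in P2+, of the lymphoid markers 5 of 7 were lower in P2- and none of 8 was called in P2+, and of the mast cell and basophil markers none of 2 was called in P2- and 2 of 3 were higher in P2+. Their part in the differences of the members was not tested.

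RUNX1C KO and WT PreMegEs were compared to ask which messages differ in mice without the isoform from the distal promoter. The RUNX1C KO samples were registered apart from those of the other groups. The paper's account of its RNA-Seq names only WT, P2+ and P2- PreMegEs. Differences of genotype and of library preparation or sequencing run can therefore not be told apart here. For the phenotype of these mice, the paper could not set aside a fall in total RUNX1 protein as the source. In RUNX1C KO PreMegEs 4 members were lower than in WT, against 8.76% of the 12784 genes tested, and 1 was higher, against 6.18%. With a minimum of 2-fold 1 was lower, against 2.67%, and none higher, against 0.743%. The groups did not overlap for 5 members, against 31.8% of all genes, and the median log2 fold change of the members was -0.14, that of all genes being -0.00291.

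Actn1 had the largest difference of the set. It was counted 45, 38 and 43 times in the RUNX1C KO libraries, or 3.93, 3.25 and 3.91 CPM, against 131 to 183 counts in WT, a log2 fold change of -1.69 ± 0.21 (adjusted p = 1.83e-05, edgeR). Its level overlapped that of P2- PreMegEs. Zyx was at 199, 231 and 201 CPM, below every WT library, with a log2 fold change of -0.62 ± 0.07 (adjusted p = 7.89e-06, edgeR). Rap1b, at 375, 390 and 337 CPM, was also below every WT library, with a log2 fold change of -0.47 ± 0.08 (adjusted p = 3.84e-04, edgeR), and Rap1b made up 84.6% ± 0.451 of the Rap1 counts per length against 88.4% ± 1.11 in WT (60.7% to 62.9% against 67.0% to 71.1% with the counts of Gm9392 added to Rap1a). In contrast, Actn4 was at 40.02 RPKM ± 3.14 in RUNX1C KO and 39.8 ± 4.38 in WT PreMegEs. The RUNX1C KO means of Rap1b and Zyx lay 19.6% and 17.3% of the way from P2- to P2+ on the CPM scale, where the WT means lay at 37.6% and 59.5%.

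Apbb1ip was higher in RUNX1C KO than in WT PreMegEs, at 49.6, 51.9 and 55.7 CPM (log2 fold change 0.30 ± 0.09, adjusted p = 0.0399, edgeR), and Ilk was lower, at 68.5, 65.3 and 65.1 CPM against 83.2, 79.6 and 76.3 CPM in WT (-0.28 ± 0.08, adjusted p = 0.0190, edgeR). Both calls were lost without RUNX1C KO replicate 2 or 3 or WT replicate 1 or 2, with adjusted p of up to 0.163 for Apbb1ip and up to 0.0759 for Ilk (edgeR), and that of Apbb1ip also without RUNX1C KO replicate 1 (0.0512). The call of Ilk was also lost with all 12 libraries in the fit (adjusted p = 0.107, edgeR) and that of Apbb1ip with no scaling beyond library totals (0.0546, edgeR). Vcl, at 151 to 195 CPM in RUNX1C KO, had a log2 fold change of -0.21 ± 0.08 (adjusted p = 0.0965, edgeR). With 1 library left out this value ran from -0.31 to -0.12, and it was called without RUNX1C KO replicate 2 (adjusted p = 0.0197) or WT replicate 1 (0.0482, edgeR). Tln1 was at 955, 1064 and 993 CPM (-0.07 ± 0.06, adjusted p = 0.557, edgeR). Fermt3, Rasgrp2 and Rap1a had log2 fold changes between -0.02 and 0.02. The megakaryocyte markers summed to 362 to 403 CPM in RUNX1C KO and 569 to 660 CPM in WT libraries (6 of 9 tested lower and 2 higher), and the erythroid markers to 5529 to 6205 CPM and 3305 to 3815 CPM (7 of 10 higher). The neutrophil and monocyte markers summed to 79.4 to 127 CPM in RUNX1C KO and 174 to 304 CPM in WT libraries (6 of 7 tested lower), the lymphoid markers to 45.4 to 57.9 CPM and 53.8 to 73.4 CPM (2 of 8 lower), and the mast cell and basophil markers, 2 of which had no count in RUNX1C KO, to 47.3 to 64.2 CPM and 27.9 to 47.9 CPM (2 of 2 higher). Their part in these differences was not tested.

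Counts of Rap1a and Ilk need particular care, because the genome holds processed copies of both messages. The pseudogene Gm9392 matches a Rap1a transcript at 98.6% over 554 bases, and it took 69.2% to 71.7% of the counts of both genes together (group means), or 1498 to 2361 counts per library. The pseudogene Gm6263 matches an Ilk transcript at 95.9% over 629 bases and took 59.1% to 62.7% of the counts of both, or 1101 to 1715 per library. The reads were aligned by a program that does not split reads across introns. Neither pseudogene passed the test in any comparison, and with the copies added to their parents Rap1a and its copy summed to 216 CPM ± 2.15 in P2- and 217 ± 10.2 in P2+ PreMegEs (log2 fold change 0.02 ± 0.07, adjusted p = 0.844, edgeR). Ilk with its copy was lower in RUNX1C KO than in WT PreMegEs (log2 fold change -0.20 ± 0.06, adjusted p = 0.0471, edgeR). In addition, 76.8% of the exonic length of Ilk lies opposite Taf10 and 12.9% opposite Rrp8, and 25.5% of that of Vcl lies opposite Ap3m1. The use of strand in counting is not given in the sources used here, so reads of these partners cannot be told apart where they overlap. Taf10 was lower in P2+ than in P2- (log2 fold change -0.57, adjusted p = 5.51e-03, edgeR), and higher in P2- than in WT (0.34, adjusted p = 0.0470, edgeR). Ap3m1 was higher in P2+ than in WT (0.47 ± 0.11, adjusted p = 0.0154, edgeR), the comparison in which Vcl was called at 0.43, and was not called between P2+ and P2- (0.20, adjusted p = 0.150, edgeR). The part of these partners in the values of Ilk and Vcl was not tested.

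The wider machinery was followed in 7 lists of 73 further genes, of which 61 passed the filter between P2+ and P2-. Of these, 20 were higher in P2+ (32.8%, against 20.1% of all genes) and 8 lower (13.1%, against 17.0%), with a median log2 fold change of 0.15. The actin linkers held 7 of the 20: of the 15 tested, 7 were higher and 2 lower, with a median of 0.33. At 2-fold or more these were Ajuba, a LIM protein related to zyxin (2.16 ± 0.25, adjusted p = 2.46e-04, edgeR), Lpp, Tes, a LIM protein that binds zyxin (from 30.0 to 88.9 CPM, 1.58 ± 0.11, adjusted p = 1.41e-05, edgeR), and Cttn, the branched-actin binder cortactin (from 34.6 to 82.3 CPM, 1.26 ± 0.11, adjusted p = 5.54e-05, edgeR). Of the scaffolds, 4 of 15 tested were higher and none lower. Fyb and Skap2, partners that link Rap1 and RIAM to integrins, rose from 44.5 to 101.3 CPM (1.20 ± 0.13, adjusted p = 1.91e-04, edgeR) and from 21.1 to 56.3 CPM (1.43 ± 0.12, adjusted p = 3.58e-05, edgeR).

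The partners of integrin-linked kinase and the regulators of Rap1 were mixed, and their counts stand against 20.1% of all genes higher and 17.0% lower in P2+ than in P2-. Lims1 (PINCH-1), which binds the kinase, rose from 191 CPM in P2- to 497 CPM in P2+ (1.40 ± 0.11, adjusted p = 2.38e-05, edgeR) and was the 1 gene called of the 5 tested in its list, while Lims2 and Parva were at or near 0. Of the 11 exchange factors, GTPase-activating proteins and other switches of Rap1 tested, 3 were higher and 3 lower, none by 2-fold. Among the other effectors and Rap proteins 2 of 7 were higher and 1 lower, and Rap2a rose from 33.7 to 67.1 CPM (1.005 ± 0.10, adjusted p = 1.23e-04, edgeR). The 8 brakes of integrin activation, proteins that compete with talin or kindlin for the integrin tail or keep the tail inactive, held 3 higher and 2 lower genes. Flna, the actin crosslinker filamin A, fell from 797 to 591 CPM (log2 fold change -0.42 ± 0.08, adjusted p = 3.17e-03, edgeR). Against WT, 10 of the 60 listed genes tested were higher and 6 lower in P2+ PreMegEs, against 9.45% and 7.07% of all genes. In P2- PreMegEs 5 of 61 were higher and 14 lower, against 6.85% and 9.60%.

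**Figure D4:**
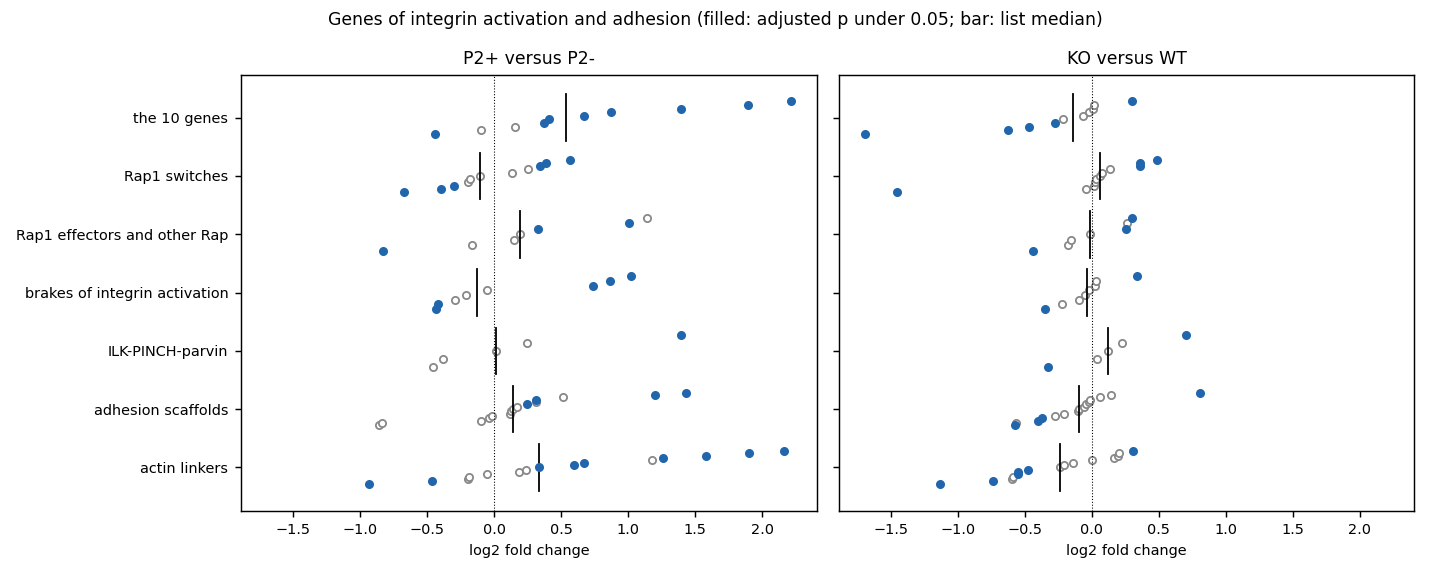
Log2 fold change (horizontal axis) of the 10 genes and of the tested genes in 6 lists of the same machinery (vertical axis) between P2+ and P2- (left) and between RUNX1C KO and WT PreMegEs (right); filled points had an adjusted p under 0.05, open points did not, and each bar is the median. The median of the actin linkers is 0.33 on the left and -0.23 on the right, while that of the Rap1 switches is -0.11 and 0.06.

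Between RUNX1C KO and WT PreMegEs 9 of the 61 listed genes tested were higher (14.8%, against 6.18% of all genes) and 12 lower (19.7%, against 8.76%). The largest fall was that of Rapgef3, the cyclic AMP-activated exchange factor of Rap1, from 25.5 to 9.34 CPM (log2 fold change -1.46 ± 0.15, adjusted p = 2.06e-06, edgeR), which in P2- and P2+ PreMegEs was at 14.8 and 9.17 CPM and thus also below WT (adjusted p = 5.75e-03 and 2.08e-04, edgeR). Of the actin linkers, 5 of 15 were lower and 1, Pdlim1 (0.31, adjusted p = 0.0397, edgeR), higher. Cttn fell from 78.6 to 36.1 CPM (-1.13 ± 0.10, adjusted p = 4.16e-07, edgeR). Vim, counted in this list although vimentin is an intermediate filament protein, fell from 535 to 323 CPM (-0.74 ± 0.06, adjusted p = 4.16e-07, edgeR). Tes (-0.55), Lpp (-0.55) and Csrp1 (-0.48) fell by less than 2-fold. In the other lists Lims1 (-0.33), Flna (-0.35), Rap2a (-0.44), Tns3 (-0.40), Nedd9 (-0.57) and Skap2 (-0.37) were lower, while Parvb, a parvin that joins Ilk to actin, was higher (0.70 ± 0.09, adjusted p = 5.59e-05, edgeR), as were Rapgef6 (0.36), Sipa1l3 (0.36), Rap1gap2 (0.49), Arap3 (0.30), Rap2c (0.25), Dok1 (0.33) and Ptk2 (0.81, from 3.29 to 5.79 CPM).

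Sptan1 (alpha-spectrin), Nav1 and Atp2a3 had the patterns most like that of Rap1b over the 12 libraries. Their log2 CPM, centred for each gene, differed from that of Rap1b by a root mean square of 0.13, 0.16 and 0.16, the smallest among 9530 genes with a mean of at least 10 CPM. Atp2a3, a calcium pump of the endoplasmic reticulum, was at 142 CPM in P2-, 264 in RUNX1C KO, 379.7 in WT and 667 in P2+ PreMegEs. For Apbb1ip the nearest were Spryd4, Pigw and Nptn (0.07 each). The libraries share their groups in all of these patterns, so the likeness is a description.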

How the data were processed

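Reads of the strand-specific poly(A) libraries had been aligned by the authors to GRCm38 with Bowtie2 at default settings (2.21 per the submitters' processing notes; the study's methods write the version differently), under which a read with several alignments is reported once, and featureCounts had assigned them to genes of Ensembl. Whole-number counts per gene and library were deposited. How featureCounts treated such reads is not given in the sources used here. Groups were taken from the labels. The members and lists were chosen with earlier results of these data known. Genes that reached 1 CPM in 3 or more of the 6 libraries of a comparison were tested with edgeR 4.0.16 (TMM scaling, quasi-likelihood F-test, Benjamini-Hochberg adjustment over all genes tested) in R 4.3.3, and called at an adjusted p under 0.05. The fit was tested on simulated data. SE was the log2 fold change divided by the square root of F. Exonic lengths and overlaps came from GENCODE vM21, and near copies were sought with BLAST at 95% identity over at least 150 bases. Replicates of a group differed by more than counting noise (chi-square per degree of freedom 4.62 to 35.0). Libraries of P2+ and P2- with the same number deviated together (correlations of 0.422 to 0.627) and are paired on this ground; those of the other comparisons were not (lowest -0.11). Named beside the members were listed genes called at 2-fold or more between P2+ and P2- (1 result is not reported here), those called between RUNX1C KO and WT, paralogues, genes sharing reads with a member, and the 3 genes of most like pattern for Rap1b and Apbb1ip. Alternatives were other scalings, filters, tools (DESeq2 1.42.0, exactTest), all libraries in 1 fit, the replicate block, each replicate left out and, chosen after seeing the data, pseudogene copies added to their parents.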

Additional observations from a re-analysis of the deposited data

How the results depend on the processing

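In the comparison of P2+ with P2- PreMegEs 8 members were called in the main analysis, 7 to 8 with 1 library left out, 8 with both replicates 2 left out, 8 with the replicate block (the fit that uses the pairing of these libraries), 8 with DESeq2 and 6 with edgeR's exactTest. Of the 12836 genes tested, the main analysis called 4762, the block 6514, DESeq2 4916 and exactTest 4244. The 8 members called with the block thus stand against a larger share of all genes than in the main analysis. Leaving out 1 library gave 3573 to 4328 genes called, and leaving out both replicates 2 gave 4554. A minimum of 2-fold left 3, 0, 2 and 1 members called between P2+ and P2-, P2+ and WT, P2- and WT, and RUNX1C KO and WT, and 1626, 497, 597 and 436 of all genes. With 1 library left out, the members called were 1 to 3 between P2+ and WT (1 without P2+ replicate 3, WT replicate 1 or WT replicate 2), 3 to 8 between P2- and WT (3 without WT replicate 2) and 3 to 5 between RUNX1C KO and WT (3 without RUNX1C KO replicate 3 or WT replicate 2). The genes called over the whole table were then 1213 to 2447, 1068 to 2189 and 1194 to 1648, and 1271 between RUNX1C KO and WT with all 12 libraries in the fit. The other comparisons share only replicate numbers (correlations from -0.11 to 0.18). There the block gave 3, 5 and 6 members called, with Tln1 lost in P2- against WT (adjusted p = 0.0633, edgeR) and Vcl gained in RUNX1C KO against WT (0.0287, edgeR). Of all genes the block called 1901, 1469 and 2091, against 2138, 2101 and 1910 in the main analysis. Without a filter on low counts Ilk (0.0496) and Rasgrp2 (0.0365) were gained in P2- against WT and Vcl (0.0279) in RUNX1C KO against WT, and Ilk was gained in P2- against WT with no scaling beyond totals (0.0478) and with all 12 libraries in the fit (0.0358, adjusted p, edgeR). No call changed direction. Of values that were not called, Rap1a changed sign between P2+ and P2- with the pseudogene copies added (0.0207), between P2+ and WT with 1 library left out (-0.0447 to 0.119), and between RUNX1C KO and WT with no scaling beyond library totals (-0.00834), with the copies added (-0.0186) and with 1 library left out (-0.0769 to 0.0936). Fermt3 did so between RUNX1C KO and WT without scaling (-0.00128) and with 1 library left out (-0.00168 to 0.0486), and Rasgrp2 with the block (0.000594) and with 1 library left out (-0.117 to 0.191). The cause was not tested. Actn1, at 38 to 245 counts per library, was the member with the fewest counts.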
